A study of Caenorhabditis elegans with 46 samples.

Results

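The genes described here encode the subunits of the 26S proteasome of Caenorhabditis elegans, the protease that degrades ubiquitin-tagged proteins. They were taken by gene symbol, as every gene named pas, pbs, rpt or rpn with a number that had a probe set assigned to that symbol alone, and this gave 33 genes on 39 probe sets among 17118 genes on the array. Where a gene had more than 1 probe set, the brightest represented it. All 33 genes could be followed in all 46 arrays: no filter on low values was used, the lowest intensity of any member on any array was 81.2, and the lowest value in the data was 16.

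The 26S proteasome is a barrel-shaped 20S core capped by 19S regulatory particles. The core stacks outer rings of alpha subunits (pas genes) on inner rings of beta subunits (pbs genes), and the beta rings hold the proteolytic sites, carried by pbs-1, pbs-2 and pbs-5. The 19S base contains the rpt ATPases, which unfold substrates and thread them into the core, together with the scaffold subunits rpn-1 and rpn-2 and the ubiquitin receptors rpn-10 and rpn-13. The 19S lid is built of the other rpn subunits and includes rpn-11, the deubiquitinase that removes ubiquitin chains before degradation. Because the subunits assemble into complexes of fixed composition, their transcripts are commonly regulated together, in worms partly through the transcription factor skn-1.

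The study measured RNA of whole worms on 1-colour Affymetrix arrays, 1 per sample, and its title ascribes the longevity brought by intermittent fasting in part to JNK and AP-1. The time course held 22 arrays of the wild-type strain N2 in 11 groups of 2, from 2 independent experiments: worms fed until day 2 of adulthood (0 h), then fed for 24 or 48 h more, or fasted for 3, 6, 9, 12, 18, 24, 36 or 48 h. The mutant set held 24 arrays in 8 groups of 3, from 3 independent experiments: day 4 adults of N2 and of kgb-1, jun-1 and daf-16 mutants in the N2 background, each fed or fasted. The labels used here give neither the fasting time of the mutant set nor the lesion in each mutant, and no transgene or drug is named for any group. The jun-1 gene encodes a subunit of the transcription factor AP-1, kgb-1 a JNK-like stress kinase, and daf-16 a FOXO factor that acts downstream of the insulin receptor.

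Array medians of the deposited intensities spanned 0.394 (time course) and 0.414 (mutant set) log2 units, so each set was quantile normalized before testing. In the time course the medians went with the treatment: 60.39 to 67.3 in fed arrays and 75.33 to 84.39 from 18 h of fasting on. In N2 of the mutant set they were 74.42 to 77.55 fed and 82.36 to 84.12 fasted, while in each mutant fed and fasted arrays overlapped. The scaling thus also removes a shift that goes with fasting. The mean correlation of an array with its replicates was at least 0.9859 for time course arrays and at least 0.9474 for those of the mutant set, the lowest being daf-16 fasted replicates 1 and 2 and daf-16 fed replicate 1. The jun-1 probe set read -4.33 log2 units in fed jun-1 against fed N2 worms (adjusted p = 6.88e-11, limma), whereas the kgb-1 and daf-16 probe sets read 0.02 and -0.43 in their own fed mutants, with adjusted p of 0.984 and 0.64. Where those probes lie relative to the lesions was not tested. Markers of germline, intestine, body wall muscle, neurons and hypodermis were present in these whole-worm samples, and only hlh-1 (muscle), unc-31 (neurons) and dpy-7 (hypodermis) averaged under an intensity of 50.

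Transcripts of many proteasome subunits were lower in fasted than in fed N2 worms of the time course. In the fit without the replicate number, no subunit was called in the first 6 h, 1 was at 9 h and 2 were at 12 h. At 18 and 36 h more than 1 in 2 of the members were lower. With the replicate number as a block, 11 were already lower at 12 h, against 13.5% of probe sets. In the comparisons below, differences are on the log2(intensity + 16) scale after normalization, fasted minus fed, and a gene counts as called when its adjusted p from limma, corrected over 22548 probe sets, was under 0.05. At 3 h none of the 33 members was called, with a median difference of 0.05, while 1.12% of all probe sets were called in either direction. At 6 h none was called, with a median of 0.01, against 2.2% of probe sets. At both times no member had an unadjusted p under 0.05.

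At 9 h 1 member was called, rpn-6.2, against a background of 3.25% of probe sets called lower. At 12 h there were 2, pas-4 and rpn-6.2, against 6.17%, and 32 of the 33 differences lay below 0, with a median of -0.25. At 18 h 17 members were called lower and none higher (51.5% of members; 18.8% of all probe sets and 28.8% of the brighter part of the array, the probe sets above the median level), with a median of -0.36. At 36 h 18 were lower and none higher (54.5%, against 20.5% and 30.7%), with a median of -0.41. The median over all probe sets was -0.04 at both of those times. No fed group of the same age was measured at 9, 12, 18 or 36 h, so these 4 comparisons use fed worms at 0 h and hold the effects of fasting and of age together.

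Where an age-matched fed group existed, the same direction was seen with fewer calls. At 24 h 11 members were lower and none higher than in fed worms at 24 h (33.3% of members; 15.7% of all probe sets and 23.8% of the brighter part), with a median of -0.27. At 48 h 5 members were lower and none higher (15.2%, against 14.1% and 22.8%), with a median of -0.17, so the share of members called at 48 h was near that of the array as a whole in this fit. These counts are from a fit without the replicate number. With that number as a block, 11 members were lower at 12 h (against 13.5% of probe sets), 22 at 18 h (24.8%), 18 at 24 h (22.2%), 23 at 36 h (26.2%) and 11 at 48 h (19.8%), where pbs-2 was also called higher. The onset of the calls and the reading at 48 h thus differed between the 2 fits. The labels do not say whether arrays with the same number share an experiment. Without quantile scaling 13, 12, 16 and 5 members were called at 18, 24, 36 and 48 h, against 12.5%, 12.3%, 14.8% and 9.64% of probe sets lower and 22.4%, 19.1%, 24.4% and 22.3% higher. The 5 genes lower at 48 h (pas-2, pas-4, pbs-3, pbs-6 and rpn-6.2) were all among the 11 lower at 24 h. That is 100% of the 48 h list and 45.5% of the 24 h list. The 24 h and 48 h comparisons share no arrays, but they come from the same fit, with the same spread for each gene. Same-numbered arrays also deviated together, so the 2 lists are not independent. The matching overlap over all probe sets is not given, and the overlap of the members is descriptive.

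**Figure D1:**
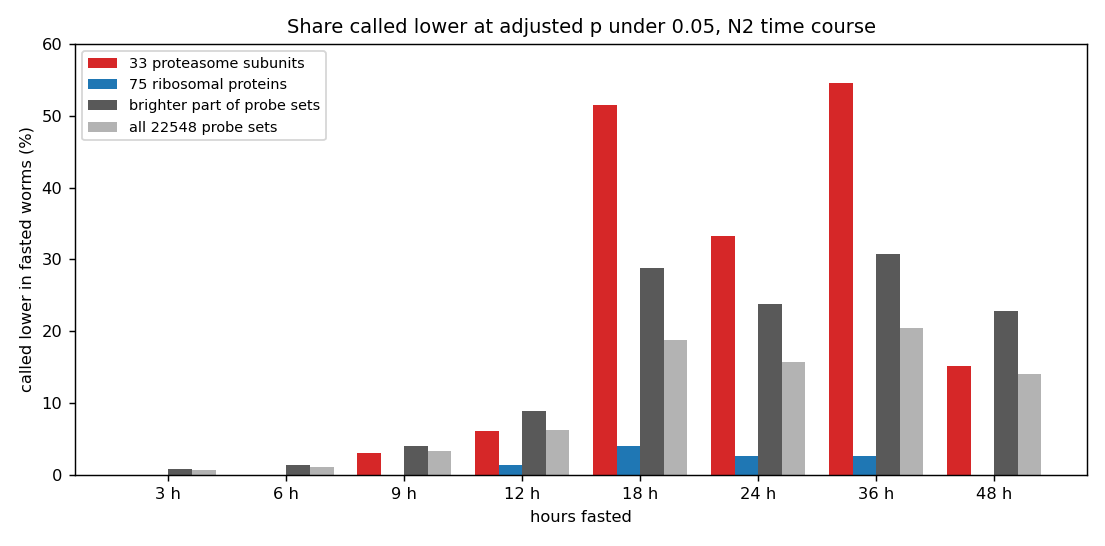
Share of each list called lower in fasted than in fed N2 worms (adjusted p under 0.05, limma) by hours fasted, with fed 24 h and fed 48 h worms as the reference at 24 and 48 h and fed 0 h worms at the other times. The share of proteasome subunits (red) reached 51.5% at 18 h and 54.5% at 36 h and was 15.2% at 48 h, while that of ribosomal proteins (blue, absent bars are 0) stayed at 4% or less.

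These counts depended on single arrays. In each refit below a group kept a single array, and the shares of all probe sets called are not given. The refit counts therefore do not tell the members from the array as a whole. Without fasted 18 h replicate 2 the count at 18 h was 2 (rpn-6.2 and rpn-7), and without either fed 0 h array it was 9. At 24 h it was 4 without fed 24 h replicate 1, 6 without fed 24 h replicate 2 and 5 without fasted 24 h replicate 2, and at 36 h it was 11 without fasted 36 h replicate 2. At 48 h it was 1 without fasted 48 h replicate 1, 2 without either fed 48 h array and 3 without fasted 48 h replicate 2, and at 12 h it was 1 without either fed 0 h array or without fasted 12 h replicate 2. At 9 h no member was called without fed 0 h replicate 2. The p-values of the time course rest on the spread between the 2 arrays within each group, pooled over the 11 groups. That fit treats all arrays as independent, although same-numbered arrays deviated together (r 0.29 to 0.62).

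By place in the particle, the alpha ring held the highest share of calls at 18 and 36 h in the fit without a block. The counts by place and the calls of single subunits below are from that fit unless the block is named. Differences between the parts were not tested. At 18 h 6 of the 7 pas genes were lower, with a group median of -0.45, and at 36 h 6 of 7 were lower with a median of -0.59. pas-4 read 2181 and 2365 in the 2 fed 0 h arrays, 1696 and 1539 after 18 h of fasting and 1363 and 1274 after 36 h (deposited intensity, replicates 1 and 2). Its fasted arrays were all below its fed 0 h arrays from 9 h on, and its difference was -0.39 (SE 0.12, adjusted p = 0.04) at 12 h, -0.50 (SE 0.12, adjusted p = 0.00399) at 18 h and -0.77 (SE 0.12, adjusted p = 0.0001) at 36 h. Relative to age-matched fed worms it was -0.63 (SE 0.12, adjusted p = 0.000956) at 24 h, with 1482 and 1224 in fasted and 2224 and 2088 in fed worms, and -0.38 at 48 h (adjusted p = 0.0278). pas-1 fell to -0.73 at 36 h (1105 and 959, from 1875 and 1694 in fed worms at 0 h), and pas-7 to -0.71. pas-5 was the exception in the ring: its differences were -0.04, -0.08, 0.01 and -0.04 at 18, 24, 36 and 48 h, and the 95% interval at 48 h ran from -0.32 to 0.24.

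**Figure D2:**
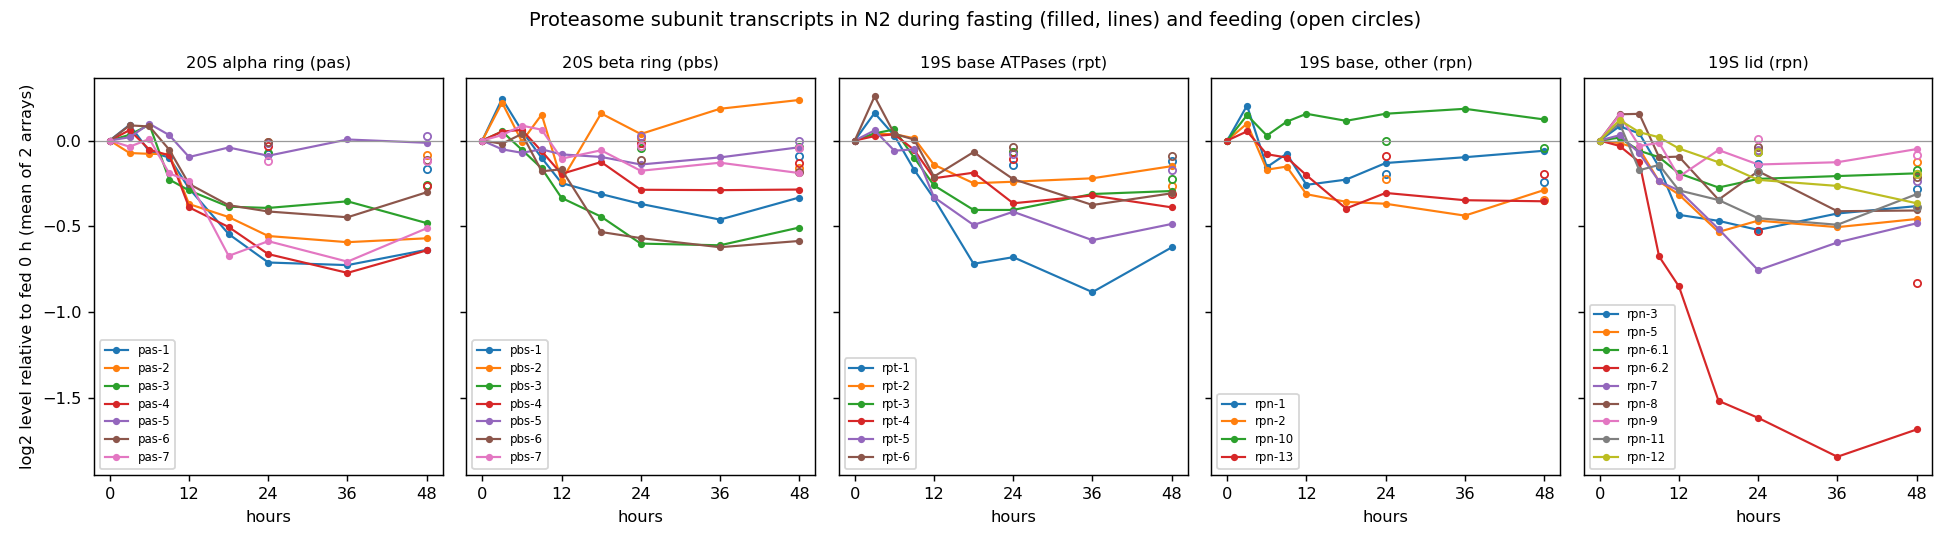
Mean log2 level of each subunit (2 arrays per group) relative to fed 0 h worms, by hours of fasting (filled points joined by lines) and in fed worms at 24 and 48 h (open circles), in panels by place in the particle. Most alpha-ring and lid subunits drop between 9 and 18 h and stay low, rpn-6.2 falls furthest, to -1.84 at 36 h, and pas-5, pbs-2 and rpn-10 were not called at any time in the fit without a block.

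In the beta ring 2 of the 7 genes were lower at 18 h and 3 at 36 h. pbs-3 and pbs-6, which carry no proteolytic site, were lower at 18, 24, 36 and 48 h, with -0.61 (SE 0.11, adjusted p = 0.00038) and -0.62 (SE 0.14, adjusted p = 0.00148) at 36 h. pbs-3 read 2116 and 2320.2 in fed and 1538 and 1748 in fasted worms at 48 h, and pbs-6 read 2374 and 2398 and 1845 and 1859, with no overlap between fed and fasted arrays for either gene. The second probe set of pbs-3 was lower at 48 h too (-0.34, adjusted p = 0.0465, limma). pbs-4 and pbs-7 were not called at any of these times, with -0.27 and -0.14 at 24 h, although the second probe set of pbs-7 was lower at 24 h (-0.39, adjusted p = 0.0372, limma).

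Of the 3 catalytic subunits, pbs-1 was lower at 24 h (-0.36, SE 0.12, adjusted p = 0.0349) and at 36 h (-0.46, SE 0.12, adjusted p = 0.00622). It read 2049.6 and 1873 in fed worms at 0 h, 1947 and 1837 in fed and 1531 and 1316 in fasted worms at 24 h, 1484 and 1343 after 36 h of fasting, and 1943 and 1758 in fed and 1636 and 1551 in fasted worms at 48 h. Every fasted array from 24 h on was below every fed array, and the difference at 48 h was -0.24 (SE 0.12, adjusted p = 0.158), called with the replicate block (adjusted p = 0.0467, limma). pbs-5 stayed near its fed level: at 48 h it read 1373 and 1292 in fed and 1333 and 1282 in fasted worms, groups that overlapped, with a difference of -0.04 and a 95% interval from -0.30 to 0.23. pbs-2 had the highest difference of the 33 members at 48 h, 0.40 (SE 0.22, adjusted p = 0.206), with 1253 and 911 in fed and 1540.5 and 1298 in fasted worms. Its replicate 1 exceeded its replicate 2 in each of these groups, both fasted arrays were above both fed arrays, and with the replicate block it was called higher (adjusted p = 0.00938, limma).

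**Figure D3:**
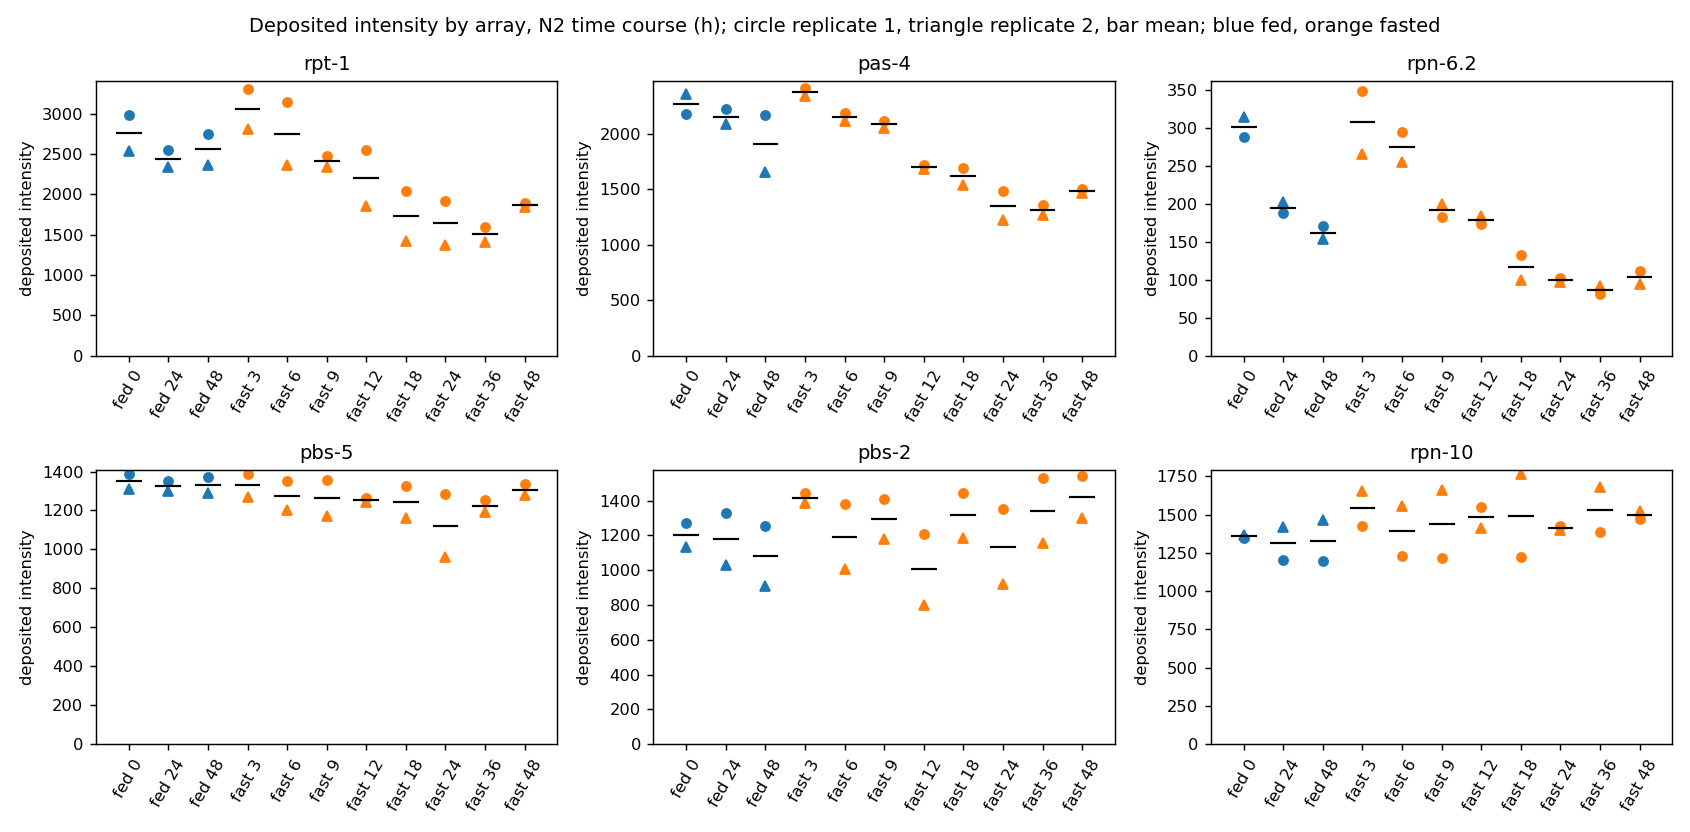
Deposited intensity of 6 subunits on each time course array (circles replicate 1, triangles replicate 2, bars the mean of the 2), fed groups in blue and fasted groups in orange, on linear axes from 0. rpt-1, pas-4 and rpn-6.2 are low from 18 h of fasting on, rpn-6.2 also declines in fed worms, and pbs-5, pbs-2 and rpn-10 were not called at any time in the fit without a block.

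Among the 6 ATPases of the base, 2 were lower at 18 h (rpt-1 and rpt-3) and 2 at 36 h (rpt-1 and rpt-5). rpt-1 read 2985 and 2538 in fed worms at 0 h, 2046 and 1417 after 18 h and 1598 and 1411 after 36 h, differences of -0.72 (SE 0.20, adjusted p = 0.00902) and -0.88 (SE 0.20, adjusted p = 0.00182). At 36 h this was 54.2% of the level in fed worms on the scale of the test. Its second probe set fell less, by 0.38 on the log2 scale at 36 h (adjusted p = 0.0178, limma). At 24 h rpt-1 was -0.54 (adjusted p = 0.0462) and at 48 h -0.50 (adjusted p = 0.0651), relative to age-matched fed worms. rpt-2, rpt-4 and rpt-6 were called at none of the 8 times. For rpt-6 replicate 1 lay above replicate 2 in every one of the 11 groups (564 and 296 in fed worms at 0 h, 446 and 280.4 after 48 h of fasting). The interval of rpt-6 at 48 h was wide, -1.29 to 0.86.

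Of the 4 non-ATPase subunits of the base, 1 was called. rpn-13, a ubiquitin receptor, was lower at 18 h (-0.40, SE 0.13, adjusted p = 0.0243) and 36 h (-0.35, SE 0.13, adjusted p = 0.0416), and the scaffolds rpn-1 and rpn-2 were not called at any time. rpn-10, the other receptor and not called, was above its fed level in the mean at every time, by 0.11, 0.16, 0.18 and 0.17 at 18, 24, 36 and 48 h, none of them called. It read 1195 and 1463 in fed and 1474 and 1528 in fasted worms at 48 h, and both fasted arrays exceeded both fed arrays. Its replicates lay further apart in most other groups (1224 and 1766 at 18 h), and its second probe set gave 0.01 at 18 h and 0.18 at 48 h.

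In the lid 6 of the 9 genes were lower at 18 h and 6 at 36 h. rpn-7 was lower at 24 h (-0.70, SE 0.11, adjusted p = 0.000152), with 2432 and 2877 in fed and 1777 and 1399 in fasted worms, and was -0.24 at 48 h (adjusted p = 0.102). The deubiquitinase rpn-11 read 1555 and 1542 in fed worms at 0 h, 1279.9 and 1128 after 18 h and 1081 and 1042 after 36 h of fasting, differences of -0.35 (SE 0.13, adjusted p = 0.0393) and -0.49 (SE 0.13, adjusted p = 0.0048). At 24 h it read 1270.3 and 1375 in fed and 1130.2 and 942 in fasted worms. At 48 h the readings were 1287 and 1098 fed and 1286 and 1214 fasted. Its fed level at 48 h was thus also below that at 0 h in both arrays, and relative to age-matched fed worms its difference was -0.27 at 24 h (adjusted p = 0.113) and 0.07 at 48 h (adjusted p = 0.713).

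The lid gene rpn-6 has 2 copies, of which 1 was called, and the difference between them was not tested. rpn-6.1, whose product links the lid to the alpha ring and which has been reported to extend worm lifespan when overexpressed, was not called at any time. It read 1376 and 1394 in fed and 1521 and 1250.4 in fasted worms at 48 h, overlapping groups with a difference of -0.02 and a 95% interval from -0.41 to 0.38. rpn-6.2 showed the largest fall of the 33 members at every time from 9 h on: 288 and 314 in fed worms at 0 h, then 183 and 199 after 9 h, 132 and 100.0 after 18 h and 81.2 and 91.4 after 36 h of fasting. The differences were -0.68 (SE 0.14, adjusted p = 0.00609), -1.52 (SE 0.14, adjusted p = 1.23e-06) and -1.84 (SE 0.14, adjusted p = 1.46e-07), the last equal to 27.9% of the fed level.

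rpn-6.2 was also the 1 member called in fed worms in the fit without a block. Against 0 h it was -0.53 at 24 h (187 and 202; adjusted p = 0.209) and -0.83 (SE 0.14, adjusted p = 0.00472) at 48 h (171 and 153), a call lost without fed 0 h replicate 2 or fed 48 h replicate 2. With age matched, it was still -1.09 (SE 0.14, adjusted p = 4.18e-05) at 24 h and -0.86 (SE 0.14, adjusted p = 0.000305) at 48 h, where fasted worms read 112 and 94.6. Between the 2 copies the probe sets differ, and whether transcripts of one reach the probes of the other was not tested.

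Apart from rpn-6.2, no member was called for age alone in the fit without a block. No member was called in fed worms at 24 h against 0 h, where 0.457% of probe sets were called in either direction and 1 member had an unadjusted p under 0.05 (limma), and the median was -0.07. At 48 h against 0 h rpn-6.2 was the single call without a block, against a background of 0.616%, and 2 members were lower with the replicate block. The share of all probe sets lower with the block is not given for this comparison. Of the 33 differences at 48 h against 0 h, 32 lay below 0, with a median of -0.17. For most members the mean of the fed reference at 48 h thus lay below that at 0 h. The median of fasted against fed worms at 48 h was also -0.17. The share of all probe sets below 0 is not given.

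Comparisons of successive fasting times resolved few steps. With the replicate block 1 member was lower from 6 to 9 h, and 2 were lower and 1 higher from 12 to 18 h. The shares of all probe sets called with the block are not given for these steps, so these counts do not tell the members from the array. The counts that follow are from the fit without a block. From 12 to 18 h 1 member was called lower, rpn-6.2 (-0.67, adjusted p = 0.0194, limma), against 1.7% of probe sets, and this call was lost without either fasted 12 h array or fasted 18 h replicate 2, while 3 members (pas-7, pbs-6 and rpn-6.2) were called without fasted 18 h replicate 1. From 6 to 9 h, 18 to 36 h and 24 to 48 h no member was called in either direction, against 0.16%, 0.31% and 0.244% of probe sets called in either direction, with 3, 2 and 1 members at an unadjusted p under 0.05. The lowest mean fasted level was reached at 36 h by 16 of the 33 members and at 18 h by 5, and the others were spread over 6, 12, 24 and 48 h. The matching shares over all genes are not given, and these times come from means of 2 arrays, so the counts are descriptive.

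Over the 22 time course arrays the members varied together to a degree. The Pearson correlation of normalized log2 values had a median of 0.653 over the 528 pairs of members, with a range from -0.84 to 0.967, and in the mutant set the median was 0.286 over 24 arrays. These arrays share the time axis and 2 experiments, so the values are descriptive. With the mean of the other members, pbs-1 (0.962), pas-1 (0.95) and pas-6 (0.947) correlated most closely in the time course, and pas-5 (0.121), pbs-2 (0.184) and rpn-10 (-0.53) least.

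The ribosome, another large and abundant complex, showed few calls in either direction. Of 75 cytosolic ribosomal protein genes, 3 were lower and 3 higher at 18 h, 2 lower and 4 higher at 36 h, 2 lower and 1 higher at 24 h, and none lower and 3 higher at 48 h, with medians between -0.03 and 0.01. No test between the 2 complexes was made.

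Markers of several tissues moved with the proteasome subunits, those of the germline most often. Of 20 germline and oocyte marker genes, 18 were lower at 18 h (median -0.99), 18 at 36 h (-1.05), 14 at 24 h (-0.87, with 1 higher) and 12 at 48 h (-0.77). Their summed deposited intensity was 57151 to 67624 in fed worms at 0 h and 59639 to 62950 at 48 h, and 25631 to 41109, 30817 to 38964, 31796 to 34747 and 37895 to 42210 after 18, 24, 36 and 48 h of fasting. Of 5 hypodermis markers 3 to 4 were lower at these times, and of 11 neuron markers 3 to 5 were higher and none lower. Of 11 intestine markers 4, 5, 6 and 5 were lower and 3, 2, 3 and 2 higher at 18, 24, 36 and 48 h. Their summed intensity was 17948 to 19019 in fed worms at 0 h and 17912 to 20713 after 18 h of fasting, then 12878 to 16537, 10993 to 12681 and 12303 to 12746, while fed worms read 18617 to 19377 at 24 h and 18077 to 20439 at 48 h. Of 10 body wall muscle markers 2, 1, 6 and 3 were lower and 1, 2, 1 and 2 higher at those times, and their sum at 48 h was 6143 to 6899 in fed and 5684 to 5778 in fasted worms. In RNA of whole worms, fewer cells of a type and less RNA per cell cannot be told apart, and the part of these markers in the proteasome result was not tested.

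Other genes of the ubiquitin-proteasome pathway were called at shares no higher than those of all probe sets, in either direction. Of 28 listed genes 22 were measured, and 4 were lower and 2 higher at 18 h, 3 lower and 2 higher at 36 h, 2 lower and 2 higher at 24 h, and 2 lower and 3 higher at 48 h, against the shares of probe sets given above for lower calls and 17.8%, 19.8%, 16.5% and 16% for higher ones. Those lower at 18 h were uba-1, the ubiquitin-activating enzyme (-0.58), ufd-1, a cofactor of the CDC-48 segregase (-0.63), psme-3, a proteasome activator (-0.51), and png-1, the N-glycanase that processes the long SKN-1A isoform (-0.50). png-1 remained lower at 48 h (-0.43, SE 0.15, adjusted p = 0.0419), together with sel-11, a ubiquitin ligase of the endoplasmic reticulum (-0.53, SE 0.19, adjusted p = 0.0445). hpk-1, a homeodomain-interacting protein kinase, was higher at 9 h and again at 18, 24, 36 and 48 h (0.54 at 9 h, 1.05 at 18 h, 0.79 (SE 0.14, adjusted p = 0.000587) at 48 h). It was not called at 12 h (0.43, adjusted p = 0.0513). hecd-1, a HECT-domain ubiquitin ligase, was higher at 24, 36 and 48 h (0.84 at 48 h, adjusted p = 0.0117), and ubh-4, a deubiquitinase that binds the proteasome, at 18 h (0.46). ubql-1, a ubiquilin that carries substrates to the proteasome, was higher at 48 h (0.49). skn-1 was called at no time, with 0.60 (SE 0.25, adjusted p = 0.0653) at 36 h.

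In the mutant set no proteasome transcript was called lower on fasting, in N2 or in any mutant. None of the 33 members was called in fasted against fed N2 worms, where 5.57% of probe sets were called in either direction (limma), and 27 of the 33 differences lay above 0, with a median of 0.09. The lowest was rpn-6.2, -0.28 (SE 0.20, adjusted p = 0.581), with 208, 172 and 158 in fed and 213, 138 and 149 in fasted worms, groups that overlapped. The highest was pas-5, 0.29 (adjusted p = 0.25), with 2192, 2292 and 1991 in fed and 2701, 2742 and 2835 in fasted worms. All 3 fasted arrays of pas-5 were above all fed arrays, and it was the 1 member with an unadjusted p under 0.05. The second probe set of rpt-2 was called higher (0.45, adjusted p = 0.0368), whereas the brighter one was not (0.27, adjusted p = 0.571).

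Among the catalytic subunits, pbs-1 read 2666, 2679.6 and 2375 in fed and 2516, 3076 and 2969.9 in fasted N2 animals of the mutant set, pbs-2 1589, 1792 and 1475 and 1589, 1991 and 1721, and pbs-5 1303, 1541 and 1383 and 1347, 1698 and 1739.6. The fed and fasted arrays of all 3 overlapped, with differences of 0.09, 0.04 and 0.09. rpn-6.1 read 1364, 793 and 1086 and 1303, 825 and 1187, rpn-10 1699, 1374 and 1494 and 2006, 1563 and 1473, and rpn-11 1370.1, 1717 and 1555 and 1586, 1938 and 2228. Those groups overlapped too. Between arrays with the same number, pbs-5 and rpn-11 were higher after fasting in 3 of 3 pairs and the other 4 genes in 2 of 3, and with the replicate block none of the 6 was called (adjusted p = 0.768 for pbs-5 and 0.294 for rpn-11, limma). For pas-4, lower from 12 h on in the time course, the interval in the mutant set was -0.23 to 0.22, and for rpn-6.1 it was -0.73 to 0.64, so for the first a change of the size seen at 18 h in the time course lay outside the interval and for the second the interval was wide.

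**Figure D4:**
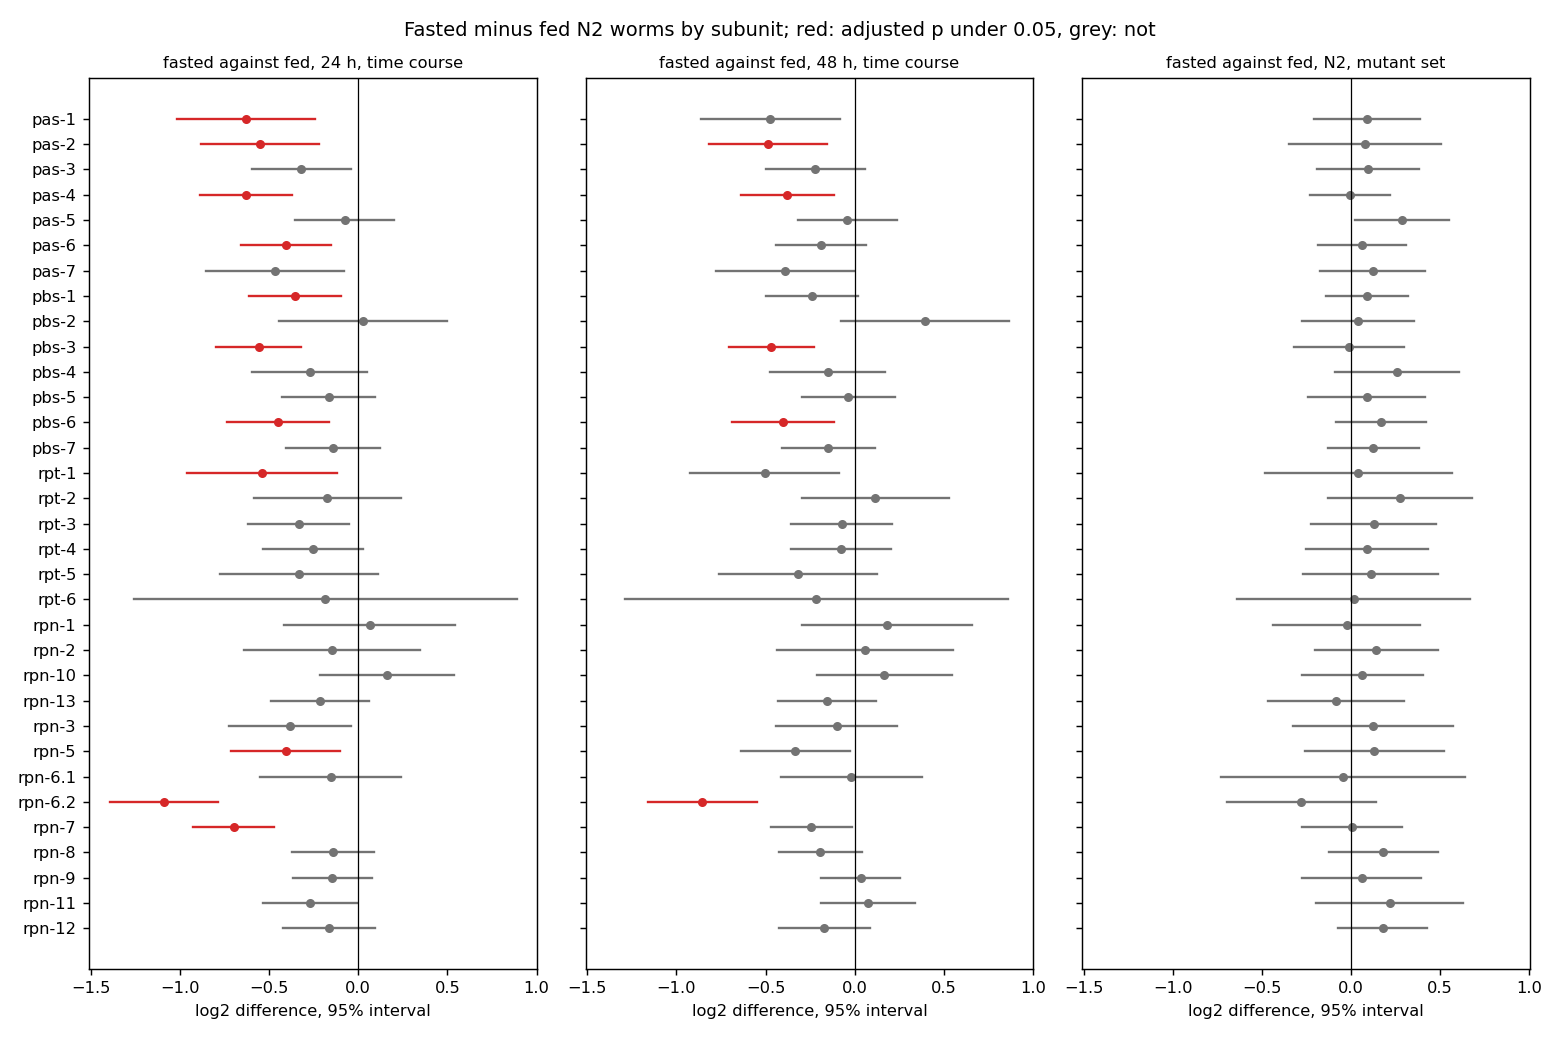
Log2 difference of each of the 33 subunits between fasted and fed N2 worms, with its 95% interval from limma, at 24 h and 48 h of the time course (2 arrays a group) and in the mutant set (3 arrays a group), red where adjusted p was under 0.05. There are 11 red points at 24 h, 5 at 48 h and none in the mutant set, where 27 of 33 points lie right of 0.

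The 2 N2 responses at day 4 of adulthood were compared directly in a fit of all 46 arrays, a comparison added after the data had been seen. The mutant-set response exceeded the 48 h response of the time course by a median of 0.28, with 29 of 33 members above 0. No member was called in either direction (0.479% of probe sets were), and 6 had an unadjusted p under 0.05. The shares of all probe sets above 0 and at that unadjusted level are not given, so those counts are descriptive. pbs-6 had a difference of 0.56 (95% interval 0.19 to 0.94, adjusted p = 0.198, limma). The sets differ in experiment and possibly in fasting time, and these cannot be told apart. Of the 20 germline markers none was called in N2 of the mutant set after fasting (median -0.26; summed intensity 47850 to 56201 fed and 41860 to 47343 fasted), and 1 responded differently from the time course at 48 h (higher). Of the 11 intestine markers 3 were lower and none higher, and their summed intensity was 14953 to 16037 in fed and 5946 to 6961 in fasted N2 worms. Of the 10 muscle markers 1 was lower (6659 to 13020 fed and 3561 to 7285 fasted), none of the 5 hypodermis markers was called, and 2 of the 11 neuron markers were higher. No intestine or muscle marker's response differed from that at 48 h of the time course (adjusted p under 0.05), with 3 intestine markers and no muscle marker at an unadjusted p under 0.05. The part of these markers in the result was not tested.

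In the mutants no subunit was called on fasting either. The median difference was 0.04 in kgb-1, 0.16 in jun-1 and 0.16 in daf-16, and 1%, 2.95% and 4.68% of probe sets were called in either direction. At an unadjusted p under 0.05 there were 0, 4 and 6 members, all 10 of them higher. The shares of all probe sets at that level are not given. In daf-16 worms rpn-12, a lid subunit, stood closest to the threshold, 0.39 (SE 0.12, adjusted p = 0.0655), with 1552, 1419.7 and 1239.9 in fed and 1811, 1887 and 2143 in fasted worms. The 3 fasted arrays were above all fed arrays. With the replicate number as a block, rpn-12 (adjusted p = 0.0322) and rpn-11 (0.38, adjusted p = 0.0478) were called higher (4.91% of probe sets were), and without daf-16 fed replicate 1 rpn-12 was called with 0.49 (adjusted p = 0.0255). With the 3 least-correlating arrays, all daf-16, left out, rpn-12 was called with 0.65 (adjusted p = 0.0356) and the median over members was 0.33.

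No member's fasting response differed from that of N2 in kgb-1, jun-1 or daf-16 worms by the interaction test (0.031%, 0.177% and 0.111% of probe sets called in either direction; no member at an unadjusted p under 0.05 in any of the 3). The median differences of response were -0.01, 0.08 and 0.04, and these comparisons share the 6 N2 arrays. Intervals were broad: for pbs-6 the kgb-1 response minus that of N2 was -0.22 (-0.58 to 0.13), and for pbs-2 the daf-16 response minus that of N2, the highest of the 33, was 0.40 (-0.05 to 0.84). Differences within those intervals could not be detected with 3 arrays a group.

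In fed mutants against fed N2 worms no member was called in kgb-1, jun-1 or daf-16 (1.9%, 1.36% and 0.435% of probe sets in either direction), with medians of 0.16, 0.03 and -0.07 and with 3, 1 and 2 members at an unadjusted p under 0.05. In fed kgb-1 worms 29 of 33 differences lay above 0. pbs-6 read 2739.9, 2540.3 and 2327 in fed N2 worms, compared with 3692, 3350.5 and 3059 in the kgb-1 mutant. rpn-3, a lid subunit, read 2367, 1912 and 2012 in N2 and 3256, 2606 and 2902 in the mutant. All 3 kgb-1 arrays lay above all N2 arrays for both genes. Their differences were 0.40 (SE 0.12, adjusted p = 0.12) and 0.45 (SE 0.22, adjusted p = 0.466), and with the replicate block both were called (adjusted p = 0.037 and 0.0424, against 2.16% of probe sets called higher). rpn-6.2 had the highest difference, 0.54 (adjusted p = 0.259), from readings of 311, 289.5 and 249.9.

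**Figure D5:**
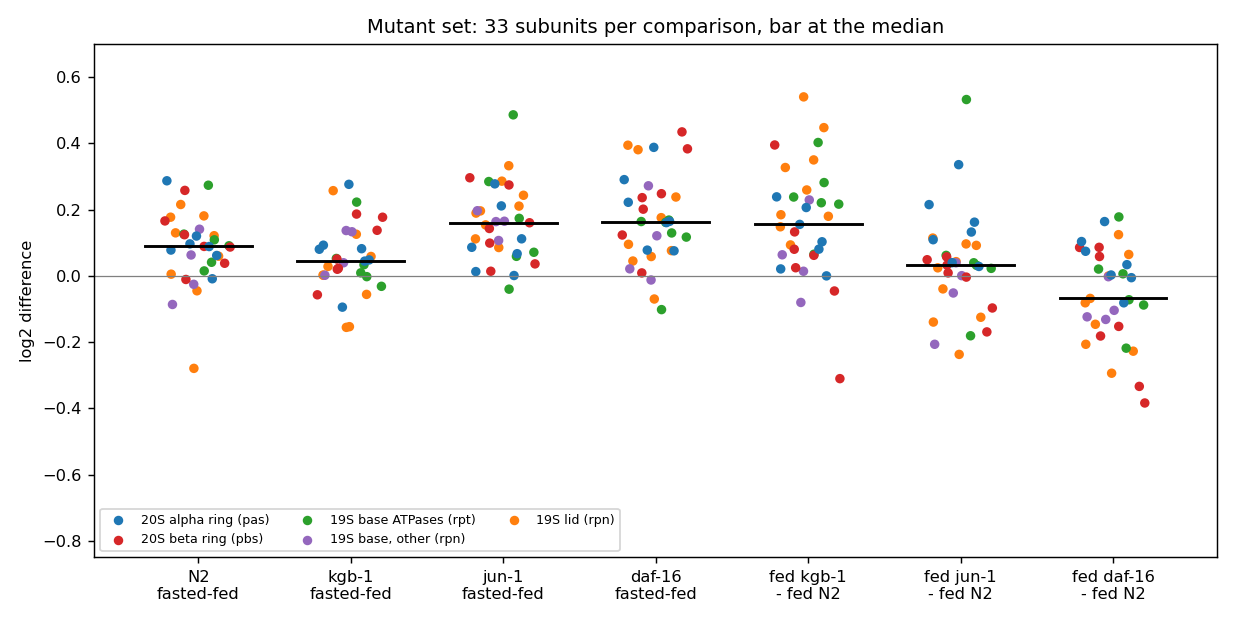
Log2 difference of each of the 33 subunits in the mutant set, coloured by place in the particle, for fasted against fed worms of each genotype and for fed mutants against fed N2 worms (3 arrays a group, horizontal spread added for legibility). Bars mark medians of 0.09, 0.04, 0.16, 0.16, 0.16, 0.03 and -0.07 from left to right, and no point had an adjusted p under 0.05.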

How the data were processed

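The deposited values were linear intensities, 1 per probe set and array, which the authors computed with the PLIER algorithm (per the submitters' processing notes); its version and any normalization are not given in the sources used here. Biotinylated cRNA came from 100 ng of Trizol-prepared total RNA, per the labels' protocols.

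Of 22625 probe sets 77 controls were left out, and 20766 of the 22548 tested had 1 gene symbol, 887 had several and 895 were not listed. Of the 33 members, 21 were on probe sets whose suffix (_s_at) marks possible hybridisation to several transcripts. Values were taken as log2(intensity + 16). Because array medians within a set differed by more than 0.2, arrays were quantile normalized within each set and fitted with limma 3.58.1 in R 4.3.3 (lmFit, eBayes with intensity trend, 1 coefficient per group). Tests were two-sided, with Benjamini-Hochberg adjustment over 22548 probe sets per comparison. The procedure was tested on simulated data in which arrays varied independently. That test therefore does not cover the shared deviation of same-numbered arrays described below. The number of arrays limits the precision. Counts of members above or below 0, or at an unadjusted p under 0.05, are given without the matching shares of all probe sets and are descriptive. The same-numbered arrays of the mutant set deviated together (r 0.157 to 0.739), and 24 of 24 arrays were closest to one with the same number. In the time course this held for 22 of 22 arrays. The labels do not state that these numbers pair the arrays. The reported fit has no block and so leaves any pairing unused. Where the replicate block moved the count of members called in a comparison, that count is given. Counts by place in the particle, and calls of single members unless stated, are from the fit without a block.

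Values by array are given for the catalytic subunits, rpn-6.1, rpn-10, rpn-11 and the extremes of the 48 h and mutant-set N2 comparisons, and for genes near them in the text. Fold changes are given for called members at the extremes, and for any outside that rule the choice was made after their values were seen. Members, lists and rules were chosen with earlier results of these data known. Alternatives were the values as deposited, offsets of 1 and 50, a restriction to the brighter probe sets, no intensity trend, all 46 arrays in 1 fit, the replicate block, the dimmest probe set per gene, each array left out in turn, and a mutant-set fit without 3 arrays. The last, and the comparison of the 2 N2 responses, were chosen after seeing the data.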

Additional observations from a re-analysis of the deposited data

How the results depend on the processing

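With each array left out in turn, the count of members called ranged from 2 to 15 after 18 h of fasting (17 with all arrays), from 11 to 16 after 36 h (18), from 4 to 11 after 24 h (11), from 1 to 3 after 48 h (5), from 1 to 3 after 12 h (2), from 0 to 1 after 9 h (1), 0 to 1 in fed worms at 48 h against 0 h (1), 0 to 3 from 12 to 18 h (1) and 0 to 1 in daf-16 fasted against fed worms (0). In the remaining comparisons 0 were called each time. In a fit of all 46 arrays the counts were 9 at 18 h, 3 at 48 h, 1 at 12 h, and 0 at 9 h, in fed worms at 48 h and from 12 to 18 h, with 1 in daf-16 fasted worms (rpn-12) and 1 in fed kgb-1 worms (pbs-6). Among the brighter part of the probe sets 4 were called at 12 h. For daf-16 fasted worms 1 was called (rpn-12) with the values as deposited, among the brighter part, without the intensity trend and without the 3 least-correlating arrays. With the dimmest probe set per gene 1 was called in N2 fasted worms of the mutant set. Shares of all probe sets called under these settings are not given here, so the counts do not tell the members from the array as a whole. Some settings bring a smaller number of arrays or probe sets, and the cause of these shifts was not tested.

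With the replicate number as a block, 11 members were called at 12 h, 18 at 24 h, 12 at 48 h (11 lower, and pbs-2 higher with an adjusted p of 0.00938 by limma), 2 in fed worms at 48 h, 1 from 6 to 9 h, 3 from 12 to 18 h, 2 in daf-16 fasted worms and 2 in fed kgb-1 worms. For fed worms at 48 h and the steps from 6 to 9 h and 12 to 18 h, the shares of all probe sets called with the block are not given here. In the time course same-numbered arrays correlated at 0.29 to 0.62 in their deviations, and 22 of 22 arrays were closest to one with the same number. With 2 arrays a group this is evidence from the data alone, since the labels do not state a pairing. For no other comparison did the block move the count of members called by over 1.5 times. No named difference that was called changed its sign under any alternative, whereas 7 uncalled ones near 0 (pbs-2, rpn-10, rpn-11, and pbs-5 and rpn-6.1 in both N2 comparisons) did so in 11 instances. Differences of named members were counted once per alternative. In 382 such instances the side of the threshold was kept, in 34 a called difference fell short of it and in 2 an uncalled one passed it. In 2 more, uncalled both times, the side was kept but the difference moved by at least the SE of the main fit. Arrays of 2 or 3 per group limit what can be detected, and the intensities of rpn-6.2, the member nearest the floor of 16, make its log2 sizes the most dependent on the offset.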

Other observations

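Genes outside the 33 members were ranked by how closely their group means over the 11 time course groups followed the mean of the members. The highest were secs-1 (r = 0.9872), Y57A10A.8 (0.9835), rom-5 (0.9826), mccc-1 (0.9825) and eelo-2 (0.9816). These are descriptive values over 11 groups that share fed controls, picked as the highest among all genes that are no members.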
